A study of Homo sapiens with 36 samples.

Results

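shNR4A3 THP-1 cells at 10% CO2 with LPS were compared with shNT THP-1 cells in the same gas and treatment. THP-1 is a human monocytic leukaemia line, and both lines carried a lentiviral short hairpin RNA, targeting NR4A3 in shNR4A3 cells and non-targeting in shNT cells. All cells spent 4 h in pH-buffered medium equilibrated to 10% CO2 (buffered hypercapnia), and LPS (2.5 µg/mL), the bacterial ligand of TLR4, was present for the last 2 h. Of the 36 libraries of the series, which cover 3 lines in 4 conditions with 3 replicates each, these were the 3 shNR4A3 and the 3 shNT libraries whose titles give 10% CO2 + LPS. The third line, shNR4A2, carries a hairpin against NR4A2, and the other conditions are 5% CO2 with LPS and 5% or 10% CO2 without it, in the same buffered medium. The hairpin sequences, and whether a line was a clone or a pool, are not given in the sources used here and each target has 1 line, so effects of the line and of the loss of NR4A3 cannot be told apart. The study describes its replicates as individual experiments.

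NR4A1, NR4A2 and NR4A3 encode orphan nuclear receptors that are induced within minutes to hours of an inflammatory stimulus. Their activity is set largely by how much of the transcript is made, and they bind DNA as monomers at the NBRE, an octamer element. In monocytes LPS acts through TLR4 and its adaptors on NF-kB and interferon regulatory factors, which drive the transcription of cytokines, chemokines and interferon-stimulated genes. NR4A receptors are known to restrain or modulate parts of this programme, and NR4A3 has been linked to the differentiation and migration of monocyte-derived dendritic cells.

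Totals were 18450090 to 22151327 counts in these 6 libraries. Between 25662 and 28918 genes had a count in 5 of them, while shNR4A3 replicate 1 reached 32956, the highest of all 36 libraries. Mitochondrially encoded genes took 2.28% to 4.15% of the counts in shNT libraries and 1.54% to 2.36% in shNR4A3 libraries. Defining monocyte markers were present: 9 of 9 reached 1 TPM (a level scaled to gene length and library size) in at least 1 library, with a sum of 852 to 1067 TPM in shNT and 1806 to 2152 TPM in shNR4A3 libraries. None of the 18 markers of T, erythroid, epithelial, fibroblast and endothelial cells reached 1 TPM, and the MS4A1 marker of B cells was at 0 in 5 of 6 libraries, although PAX5 and CD79A were detected. The 4 B cell markers summed to 5.98 to 8.75 TPM in shNT and 4.84 to 5.73 TPM in shNR4A3 libraries, and 7 dendritic cell markers to 12.3 to 20.9 and 20.5 to 40.3 TPM. Of 7 markers of other cell types tested, PAX5 was called, lower. Monocyte and B cell marker levels thus moved with the lines, and their part in the other results was not tested. In bulk RNA, fewer cells of a type and less RNA per cell cannot be told apart.

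NR4A3 itself was lower in the shNR4A3 line. Its transcript (ENSG00000119508, chromosome 9, 99821855 to 99866891 in GRCh38) stood at 30.6, 32.7 and 38.6 TPM in the shNT libraries and 12.5, 19.98 and 15.7 TPM in the shNR4A3 libraries. No shNR4A3 library reached the lowest shNT library, and the transcript was lower (log2 fold change -1.11, SE 0.13, adjusted p = 0.000321), where adjusted p is that of edgeR's quasi-likelihood test with Benjamini-Hochberg adjustment over 17720 genes and SE the standard error of the log2 value. NR4A2 was 43.97, 46.9 and 51.5 TPM in the shNT libraries and 36.1, 41.8 and 37.98 TPM in the shNR4A3 libraries, again without overlap, and fell by less (-0.32, SE 0.08, adjusted p = 0.0166). That call was lost without shNT replicate 2 or 3 or shNR4A3 replicate 1 or 3 (adjusted p = 0.0529 to 0.0834). NR4A1 stood at 12.95, 12.3 and 15.97 TPM in the shNT libraries and 14.8, 15.5 and 17.2 TPM in the shNR4A3 libraries, the groups overlapped, and the difference did not pass the test (0.18, SE 0.09, adjusted p = 0.224).

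**Figure D1:**
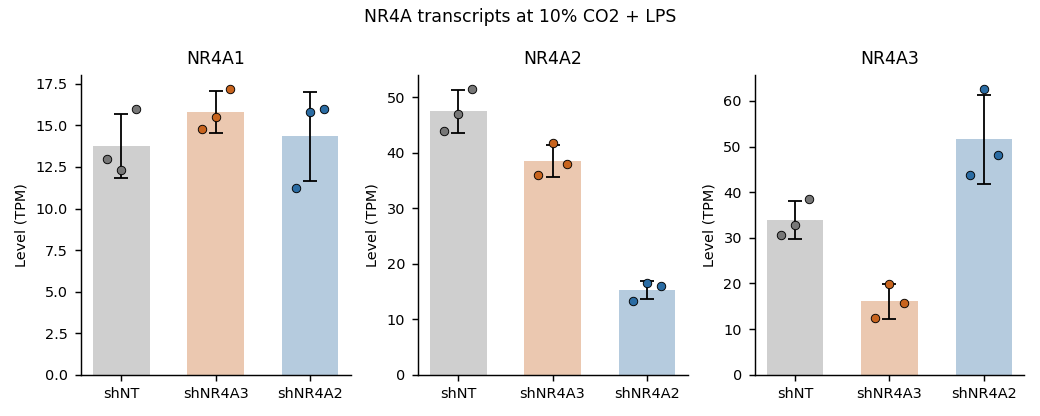
Levels of NR4A1, NR4A2 and NR4A3 in TPM (vertical axes, from 0) at 10% CO2 + LPS in shNT, shNR4A3 and shNR4A2 libraries. Points are libraries, bars the mean and error bars the SD of 3. The shNR4A3 libraries lie below all shNT libraries for NR4A3, and the shNR4A2 libraries lie below all shNT libraries for NR4A2.

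NR4A3 was barely present before LPS. In shNR4A3 cells at 10% CO2 without LPS it was 0.197, 0.185 and 0.232 TPM, from 6 to 8 counts, against 0.374, 0.176 and 0.237 TPM in shNT cells. The difference between the lines did not pass the test there (-0.39, SE 0.49, adjusted p = 0.735), in a state with 6 to 14 counts per library. At 5% CO2 without LPS NR4A3 was 0.556, 0.6925 and 0.512 TPM in shNT cells, from 17 to 21 counts. In shNR4A3 cells it was 0.158, 0.1075 and 0.0315 TPM there, from 1 to 5 counts, without overlap. At 5% CO2 with LPS NR4A3 was lower in shNR4A3 cells (log2 fold change -0.82, SE 0.08, adjusted p = 0.000286).

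Across the transcriptome, 2572 of 17720 genes passed an adjusted p of 0.05, 1294 of them higher in shNR4A3 cells (7.3%) and 1278 lower (7.21%), and such genes are described as called. In either direction 14.5% of all genes tested were called, which is the background for each list count of this fit below. The groups did not overlap in 2551 of the called genes, against 33.2% of all genes tested. The changes that rose were larger: the median fold was 1.55 among the higher and 1.36 among the lower, and 338 genes were at least 2-fold higher and 169 at least 2-fold lower. Genes that are protein coding gave 1122 higher and 1224 lower calls, and the remaining genes 172 higher and 54 lower. Without shNR4A3 replicate 1, the library with the most genes detected, these were 910, 770, 123 and 35. Libraries with the same replicate number deviated together among well-expressed genes, and with the replicate number as a block 4409 genes were called, 2146 higher and 2263 lower. Without shNT replicate 3 the count was 1269, and without any other single library 1838 to 2100. List counts given below for the block or without a library are to be read against these counts of 17720 genes, not against 14.5%.

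**Figure D2:**
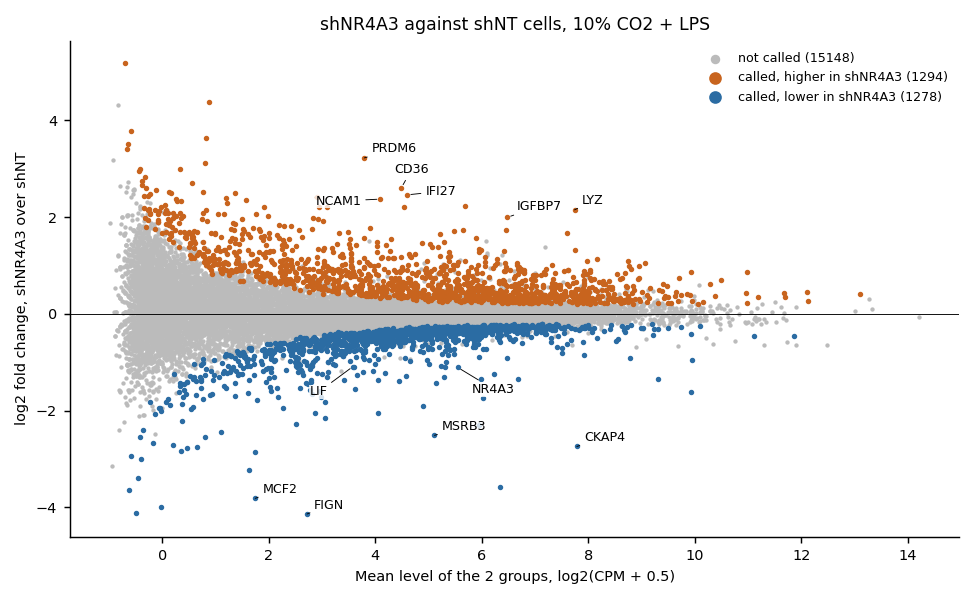
Each point is a gene, placed by its mean level over both groups (horizontal axis, log2 of CPM plus 0.5) and by its log2 fold change, shNR4A3 over shNT (vertical axis), at 10% CO2 + LPS. Called genes are orange (1294 higher) and blue (1278 lower), and NR4A3 lies at -1.11 while FIGN and PRDM6 lie at -4.14 and 3.22.

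The genes that fell most were not cytokine genes. FIGN, which encodes a microtubule-severing ATPase, was 4.08, 3.08 and 4.68 TPM in the shNT libraries and 0.293, 0.213 and 0.172 TPM in the shNR4A3 libraries (log2 fold change -4.14, SE 0.23, adjusted p = 1.39e-07). CKAP4, a membrane protein of the rough endoplasmic reticulum that also serves as a receptor at the cell surface, dropped from 354, 329 and 388 TPM to 47.6, 62.5 and 52.9 TPM (-2.74, SE 0.08, adjusted p = 5.93e-10). Both genes were far outside the spread of the replicates, and CKAP4 had the smallest adjusted p of the genes described here. MCF2, a guanine nucleotide exchange factor for small GTPases, was 3.31, 3.31 and 4.28 TPM in the shNT libraries and 0.182, 0.389 and 0.206 TPM in the shNR4A3 libraries (-3.81, SE 0.28, adjusted p = 2.77e-06), and MSRB3, a methionine sulfoxide reductase, was 29.8, 31.5 and 40.8 TPM in the shNT libraries and 5.37, 7.37 and 5.44 TPM in the shNR4A3 libraries (-2.51, SE 0.13, adjusted p = 1.36e-07). Then came PCDH7 (a protocadherin, -2.29), PAQR5 (a membrane progestin receptor, -2.27), PLXNA4 (a semaphorin receptor subunit, -2.15), CEACAM6 (an adhesion molecule of myeloid and epithelial cells, -2.05), PAX5 (a B-lineage transcription factor, -2.04) and NEBL (an actin-binding nebulin relative, -1.95). These 10 were chosen as the largest falls among protein-coding genes with at least 5 CPM in the higher group and no overlap, and they remained called without any single library.

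Among the largest rises were genes of lipid uptake, antimicrobial defence and adhesion. PRDM6, a transcriptional repressor of the PR-domain family, was 0.972, 0.837 and 1.00 TPM in the shNT libraries and 9.03, 8.36 and 9.30 TPM in the shNR4A3 libraries (3.22, SE 0.13, adjusted p = 1.03e-08). CD36, the scavenger receptor for oxidised lipoproteins and fatty acids, was 2.32, 1.89 and 2.02 TPM in the shNT libraries and 15.2, 11.7 and 11.4 TPM in the shNR4A3 libraries (2.61, SE 0.14, adjusted p = 2.53e-07). In both genes the lowest shNR4A3 library was several times the highest shNT library. LYZ, lysozyme, which degrades bacterial cell walls, was 169, 131 and 153 TPM in the shNT libraries and 777, 583 and 675 TPM in the shNR4A3 libraries (2.15, SE 0.13, adjusted p = 8.39e-06), and IFI27, an interferon-induced mitochondrial protein, was 6.53, 5.53 and 5.88 TPM in the shNT libraries and 29.6, 38.4 and 32.3 TPM in the shNR4A3 libraries (2.46, SE 0.11, adjusted p = 3.28e-08). NCAM1 (neural cell adhesion molecule, 2.37), CGN (a tight-junction protein, 2.22), APOL3 (an interferon-inducible apolipoprotein L, 2.22) and CALCRL (the calcitonin receptor-like receptor, 2.22) rose in a similar range. VCAN, the proteoglycan versican (2.23, adjusted p = 0.0215), and MPEG1, the pore-forming perforin-2 of macrophages (2.21, adjusted p = 0.0429), completed the 10. Their calls were near the threshold: VCAN was lost without shNT replicate 3 or shNR4A3 replicate 1 or 3 (adjusted p = 0.0695 to 0.0845), and MPEG1 without shNT replicate 1, 2 or 3 or shNR4A3 replicate 1 or 3 (adjusted p = 0.0543 to 0.132). With the replicate number as a block both were called (adjusted p = 3.41e-07 for VCAN and 1.96e-10 for MPEG1).

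**Figure D3:**
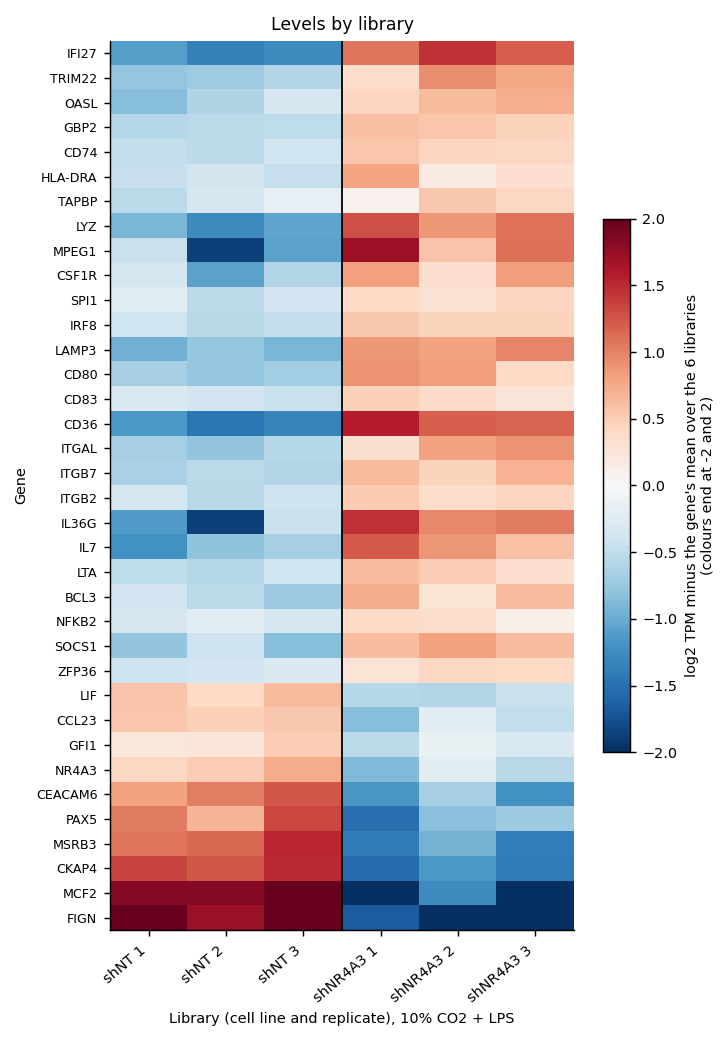
Levels of 36 genes described in the text (rows) in the 6 libraries at 10% CO2 + LPS (columns), as log2 TPM minus the gene's mean, with red above and blue below the mean. The 3 shNT libraries and the 3 shNR4A3 libraries fall on opposite sides of the mean in all 36 rows, and MPEG1 and IL36G differ most among replicates.

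Many interferon-stimulated genes rose. Of 50 tested, 36 were higher and 0 lower (72.0%, against 7.3% higher over all genes), with a median log2 fold change of 0.72 against 0.00 over all genes tested. These genes are switched on by type I interferon, and their products block viral replication or sense viral RNA. TRIM22, an antiviral ubiquitin ligase, was 3.26, 3.44 and 3.74 TPM in the shNT libraries and 7.16, 10.7 and 9.56 TPM in the shNR4A3 libraries (log2 fold change 1.37, SE 0.15, adjusted p = 4.92e-05). OASL, an oligoadenylate synthetase-like antiviral protein, was 9.82, 11.7 and 14.1 TPM in the shNT libraries and 23.9, 27.5 and 29.3 TPM in the shNR4A3 libraries (1.15, SE 0.12, adjusted p = 4.44e-05), and GBP2, a guanylate-binding GTPase that attacks intracellular pathogens, was 26.6, 27.5 and 27.8 TPM in the shNT libraries and 60.2, 57.9 and 54.6 TPM in the shNR4A3 libraries (1.05, SE 0.08, adjusted p = 3.13e-06). In all 3 genes every shNR4A3 library was above every shNT library. IRF7, the regulator that amplifies interferon transcription, was also higher (0.83, adjusted p = 0.0031), as was ISG15, a ubiquitin-like modifier (0.92, adjusted p = 0.0458), but the latter call was lost without shNT replicate 2 or 3 or shNR4A3 replicate 2 or 3 (adjusted p = 0.0523 to 0.131). IFNB1, which encodes interferon beta itself, was 2.54, 3.84 and 3.64 TPM in the shNT libraries and 1.27, 0.822 and 2.59 TPM in the shNR4A3 libraries, with overlap, and did not pass the test (-1.10, SE 0.47, adjusted p = 0.14). IFIT1 stood at 8.39, 18.5 and 16.1 TPM in the shNT libraries and 21.6, 35.3 and 26.4 TPM in the shNR4A3 libraries (0.92, SE 0.34, adjusted p = 0.155, and adjusted p = 1.74e-05 with the replicate block). Without shNR4A3 replicate 3, 23 members of the list were called, and with the block 47 were, 46 of them higher. ISG15 had an adjusted p of 2.66e-07 with the block. The share called was the highest of the 24 lists plotted with all 6 libraries, but not without shNT replicate 1 (28 of 50), shNR4A3 replicate 2 (26 of 50) or shNR4A3 replicate 3, with library size only (29 of 50) or in 1 fit to all 36 libraries (29 of 50). IRF7, ISG15, IFNB1, IFIT1 and the 5 promoters printed next were picked after their values were seen.

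**Figure D4:**
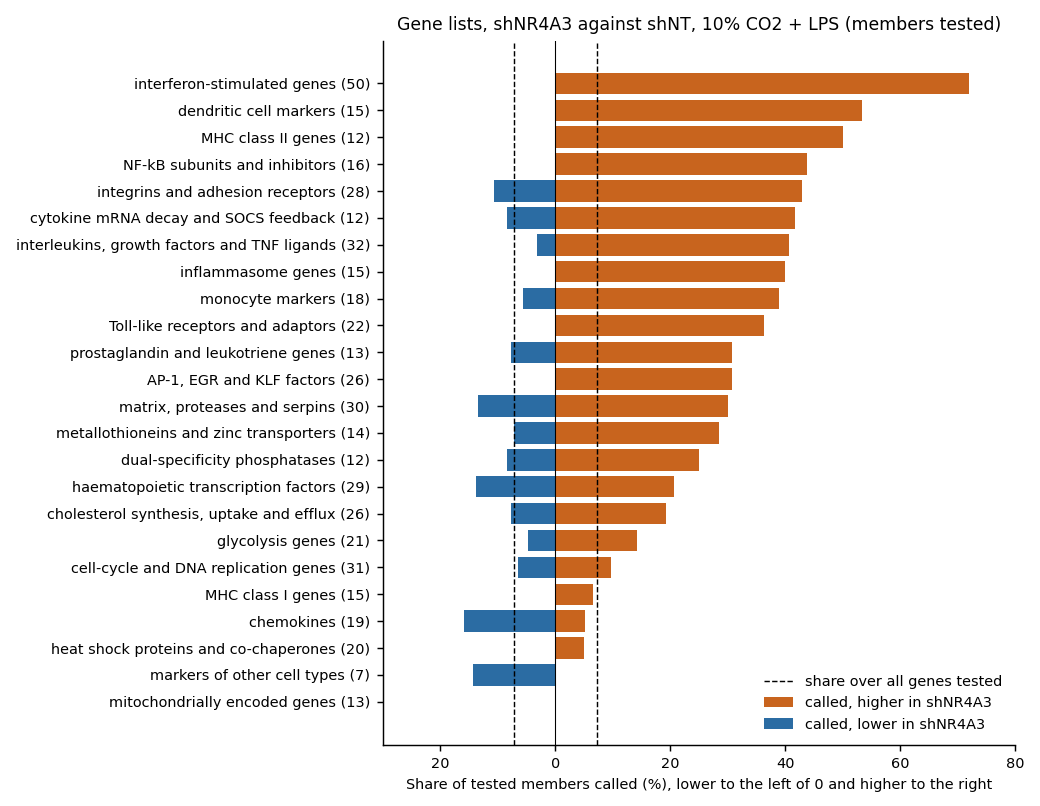
Share of tested members called in each of 24 gene lists at 10% CO2 + LPS, higher in shNR4A3 to the right of 0 (orange) and lower to the left (blue), in percent on the horizontal axis, with the number tested in brackets. Dashed lines mark the share over all genes (7.3% higher, 7.21% lower), and the interferon-stimulated genes reach 72.0% higher.

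Many promoters of these genes hold letters of the element through which interferon signals. The interferon-stimulated response element is built on GAAA repeated after 2 bases, and a search for GAAA, any 2 bases, GAAA on either strand of the 300 bases around each RefSeq start (250 before, 50 after, GRCh38.p14) found it in 2.90% of the 12091 tested genes with a promoter in the table. It was present in 4.86% of the 947 promoters of genes called higher and in 1.94% of the 1030 of genes called lower. It stood in 15 of 27 called interferon-stimulated genes and in 7 of 11 that were not called. The search was added after the values were seen. The windows of 5 called members follow, 5′ to 3′ on the gene's strand and upstream of the start, with matches on either strand in capitals.
IFI27, chr14:94110596-94110695: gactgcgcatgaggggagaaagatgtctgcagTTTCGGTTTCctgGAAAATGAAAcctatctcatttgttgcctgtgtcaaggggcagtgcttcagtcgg
IFI44, chr1:78649689-78649788: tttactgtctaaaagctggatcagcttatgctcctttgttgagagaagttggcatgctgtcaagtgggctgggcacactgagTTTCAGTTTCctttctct
IFI6, chr1:27672231-27672330: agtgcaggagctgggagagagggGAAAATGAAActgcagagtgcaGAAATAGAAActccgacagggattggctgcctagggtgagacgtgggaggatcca
IFI44L, chr1:78620330-78620429: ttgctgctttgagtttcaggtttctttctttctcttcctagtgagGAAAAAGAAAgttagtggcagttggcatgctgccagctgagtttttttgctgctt
BST2, chr19:17405700-17405799: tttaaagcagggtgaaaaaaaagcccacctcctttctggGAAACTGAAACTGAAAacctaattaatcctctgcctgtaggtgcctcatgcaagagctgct
IFI44 was 6.42, 5.80 and 9.43 TPM in the shNT libraries and 14.5, 22.7 and 18.2 TPM in the shNR4A3 libraries (1.33, SE 0.19, adjusted p = 0.000417). IFI6, IFI44L and BST2 were higher by 0.55, 1.05 and 0.44 on the log2 scale (adjusted p = 0.000461, 0.00271 and 0.00522).

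The element that NR4A receptors themselves bind was rare in all groups of promoters. The NBRE, AAAGGTCA on either strand, was found in 0.777% of the tested promoters, in 5 of 947 genes called higher (0.528%) and in 9 of 1030 called lower (0.874%). It occurred in 0 of the 27 promoters of called interferon-stimulated genes. A match is only these letters in this window. Among genes called at least 2-fold, 1 higher and 2 lower held a match. Shown are 5 called genes with a match before the start, with the match in capitals. They are those of largest fold among protein-coding genes reported here with at least 5 CPM in the higher group and no overlap. Their folds and directions thus do not stand for all called genes with a match.
CCRL2, chr3:46407143-46407240: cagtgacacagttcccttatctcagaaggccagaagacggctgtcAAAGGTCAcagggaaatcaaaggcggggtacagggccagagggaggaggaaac
AGMAT, chr1:15585052-15585149: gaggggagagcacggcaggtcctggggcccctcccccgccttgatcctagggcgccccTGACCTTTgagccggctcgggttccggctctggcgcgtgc
LGALS9, chr17:27630994-27631091: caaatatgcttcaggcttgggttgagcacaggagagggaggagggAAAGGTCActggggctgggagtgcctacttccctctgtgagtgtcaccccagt
IL18RAP, chr2:102418384-102418481: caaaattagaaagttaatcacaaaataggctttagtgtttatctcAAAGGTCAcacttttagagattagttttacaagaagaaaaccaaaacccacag
ZNF117, chr7:64991189-64991286: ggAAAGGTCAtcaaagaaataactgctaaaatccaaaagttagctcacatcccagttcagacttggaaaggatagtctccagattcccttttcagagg
CCRL2, an atypical chemerin receptor, was 6.83, 4.32 and 4.03 TPM in the shNT libraries and 12.3, 7.90 and 9.01 TPM in the shNR4A3 libraries (0.93, SE 0.24, adjusted p = 0.0228), and LGALS9, galectin-9, was 45.6, 42.8 and 49.4 TPM in the shNT libraries and 62.5, 76.1 and 75.2 TPM in the shNR4A3 libraries (0.61, SE 0.07, adjusted p = 0.000151). IL18RAP, the accessory chain of the IL-18 receptor, was higher by 0.60 (adjusted p = 0.0262) and ZNF117, a zinc finger protein, by 0.53 (adjusted p = 0.00286). AGMAT, an agmatinase-related enzyme, was the 1 of the 5 that fell (-0.75, adjusted p = 0.00357). CCRL2 lost its call without shNT replicate 2 or 3 or shNR4A3 replicate 1 (adjusted p = 0.0649 to 0.0979), and IL18RAP without shNT replicate 1 or 3 or shNR4A3 replicate 1 or 2 (adjusted p = 0.0535 to 0.0722).

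Several genes of antigen presentation by MHC class II were higher in shNR4A3 cells. MHC class II molecules display peptides to CD4+ T cells, and CD74 is their chaperone, the invariant chain. Of 12 class II genes tested 6 were called, all higher, and all 12 had a positive log2 fold change (median 0.79). CD74 was 80.9, 78.7 and 86.1 TPM in the shNT libraries and 165, 152 and 150.04 TPM in the shNR4A3 libraries (log2 fold change 0.91, SE 0.07, adjusted p = 6.03e-06) and HLA-DRA, the alpha chain of HLA-DR, was 19.4, 20.8 and 19.5 TPM in the shNT libraries and 46.6, 30.2 and 33.98 TPM in the shNR4A3 libraries (0.87, SE 0.17, adjusted p = 0.00523). HLA-DRB1 (0.41) and HLA-DRB5 (0.63), the near-identical beta chains, also rose, although reads shared between them make either value uncertain. CIITA, the class II transactivator, was 0.213, 0.168 and 0.129 TPM in the shNT libraries and 0.464, 0.353 and 0.260 TPM in the shNR4A3 libraries and just missed the threshold (1.06, SE 0.35, adjusted p = 0.0603). It passed without shNR4A3 replicate 3 (adjusted p = 0.0464), with the replicate block (adjusted p = 0.0302) and in 1 fit to all 36 libraries, and was picked, like CD14, TLR4 and CXCL8, after its values were seen. Of 15 class I genes only TAPBP, tapasin, which loads peptides onto class I molecules, was called, at 150.3, 171 and 196 TPM in the shNT libraries and 232, 317 and 291 TPM in the shNR4A3 libraries (0.67, SE 0.10, adjusted p = 0.00159), with a list median of 0.13. The class I share called was 6.67%, against 14.5% over all genes. Without shNR4A3 replicate 1, 2 class I genes were called, and with the replicate block 5 were, 4 of them higher.

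Dendritic cell and monocyte markers were both among the lists with called members. Of 15 dendritic cell markers 8 were called, all higher (53.3%, median 0.93). LAMP3, a lysosomal protein of mature dendritic cells, was 2.10, 2.37 and 2.17 TPM in the shNT libraries and 7.44, 7.08 and 7.99 TPM in the shNR4A3 libraries (log2 fold change 1.74, SE 0.17, adjusted p = 2.08e-05), and CD80, a ligand that costimulates T cells, was 1.99, 1.85 and 1.95 TPM in the shNT libraries and 5.91, 5.62 and 4.17 TPM in the shNR4A3 libraries (1.42, SE 0.21, adjusted p = 0.00058). IRF8, which directs dendritic cell and monocyte development, was 213, 189 and 201 TPM in the shNT libraries and 404, 379.9 and 382 TPM in the shNR4A3 libraries (0.93, SE 0.07, adjusted p = 5.26e-06). Every shNR4A3 library was above every shNT library in all 3. CD83, a maturation marker, was higher by 0.73 (adjusted p = 0.000124), and CCR7 and CLEC10A, picked after their values were seen, by 2.07 and 2.52 (adjusted p = 0.00124 and 0.00653) at levels of 0.127 to 4.42 TPM. The dendritic cell marker CLEC9A was at 0 in 5 of 6 libraries. Of the 15 tested, 12 had a positive and 3 a negative log2 fold change. ZBTB46 and CD1A, also picked after their values were seen, overlapped between the lines. ZBTB46 was 10.01, 7.14 and 9.04 TPM in the shNT libraries and 8.67, 7.455 and 7.57 TPM in the shNR4A3 libraries. CD1A was 0.434, 0.415 and 0.298 TPM in the shNT libraries and 0.521, 0.084 and 0.082 TPM in the shNR4A3 libraries.

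Of 18 monocyte markers 7 were called higher and 1 lower (median 0.50). Besides LYZ these included SPI1, which encodes PU.1, the main myeloid transcription factor, at 672, 551 and 606 TPM in the shNT libraries and 1046, 981 and 1069.6 TPM in the shNR4A3 libraries (log2 fold change 0.74, SE 0.08, adjusted p = 5.29e-05). CSF1R, the M-CSF receptor, was 39.2, 23.9 and 33.4 TPM in the shNT libraries and 87.9, 63.1 and 89.2 TPM in the shNR4A3 libraries (1.30, SE 0.21, adjusted p = 0.0126), a call lost without shNR4A3 replicate 1 (adjusted p = 0.0509). With the replicate block CSF1R had an adjusted p of 3.06e-09. ITGAX, the integrin CD11c, was higher by 0.49 (adjusted p = 0.00831). The 1 that fell, named after its value was seen, was FCGR1A, the Fc receptor CD64 (-0.29, adjusted p = 0.0143), lost without shNT replicate 2 or shNR4A3 replicate 1 (adjusted p = 0.0546 to 0.0592). CD14, the LPS co-receptor, was 13.3, 7.47 and 12.1 TPM in the shNT libraries and 22.6, 10.4 and 18.6 TPM in the shNR4A3 libraries, with overlap, and did not pass the test (0.64, SE 0.31, adjusted p = 0.221), although it did without shNR4A3 replicate 2 (adjusted p = 0.0153), with the replicate block (adjusted p = 0.00283) and with no filter (adjusted p = 0.00416). The count of called monocyte markers was 3 without shNR4A3 replicate 1, 4 without shNT replicate 2 and 5 without shNT replicate 3.

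Several adhesion receptors of leukocytes rose. Of 28 integrins and adhesion receptors 12 were called higher and 3 lower. ITGB2, the beta subunit shared by the leukocyte integrins, was 366, 317 and 351 TPM in the shNT libraries and 671, 605 and 628 TPM in the shNR4A3 libraries (log2 fold change 0.86, SE 0.08, adjusted p = 1.2e-05), and ITGAL, its LFA-1 partner, was 18.2, 16.7 and 19.5 TPM in the shNT libraries and 35.8, 50.2 and 53.4 TPM in the shNR4A3 libraries (1.33, SE 0.12, adjusted p = 3.14e-05). ITGB7, of the gut-homing integrins, was 4.46, 4.81 and 4.67 TPM in the shNT libraries and 10.9, 9.57 and 11.3 TPM in the shNR4A3 libraries (1.17, SE 0.13, adjusted p = 9.2e-05). The 3 integrin genes were higher in every shNR4A3 library than in any shNT library. CD44, the hyaluronan receptor, was higher by 0.98 (adjusted p = 0.00732), and the tetraspanin CD9 was lower (-1.30, adjusted p = 0.000514), as were ITGB5, an integrin beta subunit (-0.78), and ICAM3, an integrin ligand (-0.75, lost without shNT replicate 1, 2 or 3 or shNR4A3 replicate 1 or 3 (adjusted p = 0.0537 to 0.133)), all picked after their values were seen.

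Among the interleukins, growth factors and TNF ligands called, LIF alone was lower. Of 32 interleukins, growth factors and TNF ligands, 13 were called higher and 1 lower, with a median of 0.46. LTA, lymphotoxin alpha, was 10.8, 10.3 and 11.6 TPM in the shNT libraries and 23.5, 21.7 and 19.3 TPM in the shNR4A3 libraries (log2 fold change 0.96, SE 0.14, adjusted p = 0.000504), and IL36G, an IL-1 family cytokine, was 1.05, 0.630 and 1.70 TPM in the shNT libraries and 6.33, 4.48 and 4.71 TPM in the shNR4A3 libraries (2.15, SE 0.36, adjusted p = 0.0014). IL7, a lymphocyte survival factor, was 0.696, 0.922 and 1.01 TPM in the shNT libraries and 3.75, 2.97 and 2.42 TPM in the shNR4A3 libraries (1.76, SE 0.27, adjusted p = 0.000922). LIF, an IL-6 family cytokine, ran the other way, at 13.7, 12.1 and 14.2 TPM in the shNT libraries and 6.19, 6.14 and 6.77 TPM in the shNR4A3 libraries (-1.09, SE 0.12, adjusted p = 5.09e-05). The remaining values were picked after they were seen. IL6 was 4.30, 2.86 and 2.34 TPM in the shNT libraries and 17.5, 6.82 and 9.19 TPM in the shNR4A3 libraries (1.81, SE 0.42, adjusted p = 0.0264), a call lost without shNT replicate 2 or 3 or shNR4A3 replicate 3 (adjusted p = 0.0554 to 0.1). EBI3, a subunit of IL-27 and IL-35, was higher by 1.58 (adjusted p = 0.0105), and IL1B by 0.46 (adjusted p = 0.0326), though IL1B was lost without shNT replicate 2 or 3 or shNR4A3 replicate 1 (adjusted p = 0.0581 to 0.117). TNF, the founding cytokine of its family, was 1969.8, 1653 and 1795 TPM in the shNT libraries and 1856, 1775 and 1702 TPM in the shNR4A3 libraries, with overlap and no call (-0.05, SE 0.08, adjusted p = 0.744). With the replicate block the adjusted p was 1.13e-05 for IL6 and 5.55e-06 for IL1B. Without shNT replicate 3, 7 genes of the list were called.

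Chemokines were called in both directions. Of 19 tested, 1 was called higher and 3 lower (median 0.08), or 21.1% against 14.5% over all genes. CCL23, which attracts monocytes and resting T cells, was 32.99, 31.3 and 32.8 TPM in the shNT libraries and 12.6, 19.4 and 16.01 TPM in the shNR4A3 libraries (log2 fold change -1.04, SE 0.17, adjusted p = 0.00142), and CCL5, or RANTES, was 722, 627 and 702 TPM in the shNT libraries and 529.8, 497 and 569.7 TPM in the shNR4A3 libraries (-0.38, SE 0.08, adjusted p = 0.00428). Both fell without overlap and stayed called without any single library. CCL20 (-0.31, SE 0.10, adjusted p = 0.0496) and CXCL6 (1.05, SE 0.29, adjusted p = 0.0362) were near the threshold, the former lower and the latter higher. CCL20 was lost without shNT replicate 1, 2 or 3 or shNR4A3 replicate 2 or 3 (adjusted p = 0.0686 to 0.161), and CXCL6 without shNT replicate 2 or 3 or shNR4A3 replicate 1 or 3 (adjusted p = 0.0668 to 0.14). CXCL8, or IL-8, was 5054, 4433 and 4537 TPM in the shNT libraries and 5267, 3530.4 and 3796 TPM in the shNR4A3 libraries, with overlap, and was not called (-0.17, SE 0.17, adjusted p = 0.545), except without shNR4A3 replicate 1 (adjusted p = 0.0129). The list had 2 called members in 1 fit to all 36 libraries, and 2 without shNT replicate 2, shNT replicate 3 or shNR4A3 replicate 3, and 8 with the replicate block, 5 of them higher.

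Some Toll-like receptor genes rose, although TLR4 was not among those called. Of 22 Toll-like receptors and adaptors 8 were called, all higher (median 0.44). LY86, or MD-1, the partner of the TLR-related CD180, was 26.7, 20.9 and 23.3 TPM in the shNT libraries and 64.7, 60.5 and 64.6 TPM in the shNR4A3 libraries (log2 fold change 1.40, SE 0.12, adjusted p = 7.27e-06), and TLR7, a sensor of single-stranded RNA, was 10.3, 12.7 and 12.1 TPM in the shNT libraries and 18.3, 20.8 and 20.4 TPM in the shNR4A3 libraries (0.73, SE 0.11, adjusted p = 0.000572). MYD88, the adaptor of most Toll-like receptors, was 75.6, 65.8 and 68.4 TPM in the shNT libraries and 111, 102 and 98.99 TPM in the shNR4A3 libraries (0.55, SE 0.08, adjusted p = 0.000684), and the kinase gene IRAK2 was higher by 0.65 (adjusted p = 0.00112). TLR4 itself was 26.2, 16.1 and 25.4 TPM in the shNT libraries and 17.7, 13.9 and 15.6 TPM in the shNR4A3 libraries, with overlap, a difference in the other direction that missed the threshold (-0.53, SE 0.16, adjusted p = 0.0555). It passed without shNT replicate 2 or shNR4A3 replicate 1 (adjusted p = 0.00277 to 0.0475), with the replicate block (adjusted p = 0.000178), by DESeq2 (adjusted p = 0.00813), with library size only (adjusted p = 0.0341) and with no filter. Without shNT replicate 3, 5 of the 22 were called.

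Of 16 NF-kB subunits and inhibitors 7 were called, all higher, and all 16 log2 fold changes were positive (median 0.25). BCL3, an atypical IkB that binds p50 and p52, was 49.2, 44.6 and 38.8 TPM in the shNT libraries and 108, 78.1 and 98.4 TPM in the shNR4A3 libraries (log2 fold change 1.08, SE 0.16, adjusted p = 0.00302), and NFKB2, which encodes p100/p52, was 419, 457 and 422 TPM in the shNT libraries and 702, 682 and 575 TPM in the shNR4A3 libraries (0.57, SE 0.10, adjusted p = 0.00188). The inhibitor gene NFKBIE was 168, 163 and 169.8 TPM in the shNT libraries and 249, 244 and 254 TPM in the shNR4A3 libraries (0.55, SE 0.07, adjusted p = 0.000132), and TNIP1, an A20-binding inhibitor, was higher by 0.48 (adjusted p = 0.00112). Of these 4 named genes, BCL3, NFKBIE and TNIP1 act on the pathway as regulators, and NFKB2 encodes a subunit.

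Several feedback genes rose. Of 12 genes of cytokine mRNA decay and SOCS feedback, 5 were called higher and 1 lower, and 10 were called with the replicate block, 7 of them higher. ZFP36, tristetraprolin, which destabilises cytokine mRNA, was 158, 161 and 172 TPM in the shNT libraries and 255, 279.7 and 278 TPM in the shNR4A3 libraries (log2 fold change 0.70, SE 0.07, adjusted p = 1.92e-05), and SOCS1, which inhibits JAK kinases, was 2.52, 3.26 and 2.42 TPM in the shNT libraries and 6.68, 7.64 and 6.71 TPM in the shNR4A3 libraries (1.33, SE 0.26, adjusted p = 0.00397). The endonuclease genes ZC3H12D (0.88) and ZC3H12A (0.33), the latter Regnase-1, rose by less than SOCS1. Named after their values were seen, the decay factor gene ZFP36L2 was higher (0.31, lost without shNT replicate 3 or shNR4A3 replicate 1 or 3 (adjusted p = 0.0516 to 0.105)) and SOCS2 lower (-0.80, lost without shNT replicate 3 (adjusted p = 0.0567)). Of 12 dual-specificity phosphatases, which inactivate MAP kinases, 3 were higher and 1 lower: DUSP5 (0.92), DUSP2 (0.84) and DUSP10 (0.44) against DUSP16 (-0.38). DUSP10 was lost without shNT replicate 2 or 3 or shNR4A3 replicate 1 or 3 (adjusted p = 0.0668 to 0.103), and DUSP16 without shNT replicate 1 or 3 or shNR4A3 replicate 2 or 3 (adjusted p = 0.0948 to 0.115). With the block 7 were called, and 2 in 1 fit to all 36 libraries, without shNT replicate 3 or without shNR4A3 replicate 3.

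Of 26 AP-1, EGR and KLF factors, the immediate-early regulators, 8 were called, all higher. KLF10, a TGF-beta-inducible repressor, was 65.5, 54.3 and 67.7 TPM in the shNT libraries and 123, 105 and 107 TPM in the shNR4A3 libraries (log2 fold change 0.82, SE 0.09, adjusted p = 6.01e-05), and KLF2, which restrains monocyte activation, was 7.02, 6.03 and 6.43 TPM in the shNT libraries and 12.1, 13.3 and 15.4 TPM in the shNR4A3 libraries (1.04, SE 0.16, adjusted p = 0.00077). JUNB (0.53) and BATF2 (1.24), AP-1 family members, were higher without overlap. With the block 13 were called, 12 of them higher, and without shNT replicate 3 there were 5. Of 15 inflammasome genes 6 were called, all higher. CASP1, the protease that matures IL-1 beta, was 36.02, 31.8 and 34.8 TPM in the shNT libraries and 79.5, 65.6 and 58.9 TPM in the shNR4A3 libraries (0.97, SE 0.11, adjusted p = 0.00013), and MEFV, pyrin, was 31.6, 24.3 and 29.5 TPM in the shNT libraries and 45.8, 43.4 and 48.04 TPM in the shNR4A3 libraries (0.67, SE 0.09, adjusted p = 0.000325). CARD16 (0.91), a CASP1 relative that shares sequence with it, and CASP4 (0.36), a sensor of cytosolic LPS, were also called. The count was 10 with the block.

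Transcription factors of the blood lineages went both ways, with 6 of 29 higher and 4 lower. MAF, a factor of macrophages, was 0.755, 0.822 and 0.425 TPM in the shNT libraries and 2.63, 2.10 and 2.16 TPM in the shNR4A3 libraries (log2 fold change 1.76, SE 0.26, adjusted p = 0.000641), whereas GFI1, a repressor that favours granulocytes, was 46.7, 47.5 and 56.7 TPM in the shNT libraries and 27.8, 36.5 and 32.5 TPM in the shNR4A3 libraries (-0.66, SE 0.09, adjusted p = 0.000467). The other 3 lower genes, named after their values were seen, were HOXA10 (-0.58), FLI1 (-0.48) and the lymphoid factor gene IKZF3 (-0.83). With the replicate block 16 were called, 10 higher and 6 lower. Of 30 genes of the matrix, proteases and serpins 9 were higher and 4 lower. PLAU, urokinase, was 72.00, 60.6 and 69.1 TPM in the shNT libraries and 128, 122 and 153 TPM in the shNR4A3 libraries (0.98, SE 0.09, adjusted p = 2.06e-05). Every shNR4A3 library was above every shNT library. SERPINB8 (0.88) and SERPINA1 (1.17), both protease inhibitors, were higher. CTSG, the granule protease cathepsin G, picked after its values were seen, was 2669, 3793 and 4396 TPM in the shNT libraries and 835, 1465 and 1299 TPM in the shNR4A3 libraries (-1.62, SE 0.27, adjusted p = 0.0187), a call lost without shNR4A3 replicate 3 (adjusted p = 0.0714). MMP8, the neutrophil collagenase (-2.83), and TIMP3, a metalloproteinase inhibitor (-0.96, lost without shNT replicate 3 or shNR4A3 replicate 1 or 2 (adjusted p = 0.0945 to 0.159)), also lower, were likewise named after their values were seen. With the replicate block CTSG had an adjusted p of 1.8e-11. The list had 7 calls without shNT replicate 3, and 8 without shNR4A3 replicate 1 or without shNR4A3 replicate 3.

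Metabolic genes were called in both directions. Of 26 cholesterol genes 5 were higher and 2 lower: INSIG1, the sterol sensor that holds back SREBP, was 62.6, 53.2 and 66.2 TPM in the shNT libraries and 145, 121 and 117 TPM in the shNR4A3 libraries (log2 fold change 1.05, SE 0.10, adjusted p = 1.76e-05), and SQLE, squalene epoxidase, was 103, 88.2 and 116 TPM in the shNT libraries and 69.3, 62.3 and 74.02 TPM in the shNR4A3 libraries (-0.60, SE 0.09, adjusted p = 0.000525). MSMO1, a sterol oxidase, was higher by 0.90 (adjusted p = 0.000325). Named after their values were seen, the synthase gene HMGCS1 (0.38) and the regulator gene SREBF1 (0.30) were higher and the isomerase gene EBP lower (-0.39). SREBF1 was lost without shNT replicate 1 or 2 or shNR4A3 replicate 1, 2 or 3 (adjusted p = 0.0637 to 0.141), and EBP without shNT replicate 3 or shNR4A3 replicate 1 or 2 (adjusted p = 0.0878 to 0.141). Of 21 glycolysis genes 3 were higher and 1 lower, with 2 called without shNT replicate 3. The share called was 26.9% of the cholesterol genes and 19.05% of the glycolysis genes, against 14.5% over all genes. PKM, pyruvate kinase, and PFKFB3, which makes the activator of phosphofructokinase, were higher by 0.40 and 0.54 (adjusted p = 0.00201 and 0.00498). HK1, a hexokinase (0.43), lost its call without shNT replicate 2 or 3 or shNR4A3 replicate 1 (adjusted p = 0.0587 to 0.103), and SLC2A1, the glucose transporter GLUT1 (-0.31), without shNT replicate 1 or 3 or shNR4A3 replicate 1 or 2 (adjusted p = 0.0599 to 0.0983).

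Of 13 prostaglandin and leukotriene genes 4 were higher and 1 lower, and 3 were called without shNT replicate 2. ALOX5AP, which presents arachidonate to 5-lipoxygenase, was 76.6, 71.96 and 70.3 TPM in the shNT libraries and 143, 142 and 129 TPM in the shNR4A3 libraries (log2 fold change 0.90, SE 0.09, adjusted p = 2.06e-05), and PLA2G4A, the phospholipase that releases arachidonate, was 13.4, 17.7 and 14.1 TPM in the shNT libraries and 8.29, 8.72 and 8.28 TPM in the shNR4A3 libraries (-0.87, SE 0.15, adjusted p = 0.00206). The prostaglandin E2 receptor genes PTGER2 (1.01) and PTGER4 (0.34) were higher, PTGER4 only while shNT replicates 2 and 3 were both kept (adjusted p = 0.064 to 0.0787 without either). PTGS1, the cyclooxygenase COX-1, named after its value was seen, was higher (0.43) and lost without shNT replicate 2 or shNR4A3 replicate 3 (adjusted p = 0.0566 to 0.0598). Of 14 metallothionein and zinc transporter genes 4 were higher and 1 lower, with 3 called without shNT replicate 3. The zinc importer gene SLC39A10 fell (-0.77, SE 0.12, adjusted p = 0.000765), and SLC39A14 (0.33), the zinc exporter gene SLC30A4 (1.246) and the metallothionein MT1X (0.46) rose. SLC30A4 was lost without shNT replicate 3 (adjusted p = 0.0584), and reads of MT1X may be shared with its close relatives. The exporter gene SLC30A7 (0.25, adjusted p = 0.0485), named after its value was seen, was lost without any 1 of the 6 libraries.

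Of 31 cell-cycle genes 3 were higher and 2 lower, or 16.1% against 14.5% over all genes. CCND1, cyclin D1, was 24.04, 21.5 and 23.2 TPM in the shNT libraries and 47.2, 52.3 and 48.8 TPM in the shNR4A3 libraries (log2 fold change 1.08, SE 0.08, adjusted p = 1.96e-06), and CDKN1A, the inhibitor p21, was 121, 108 and 137 TPM in the shNT libraries and 182, 159.6 and 173 TPM in the shNR4A3 libraries (0.48, SE 0.08, adjusted p = 0.00161). AURKB (0.52), a mitotic kinase, was lost without shNT replicate 1 or 2 or shNR4A3 replicate 2 or 3 (adjusted p = 0.0505 to 0.0982), and CDC6 (-0.30), a replication licensing factor, without shNT replicate 2 or 3 or shNR4A3 replicate 1, 2 or 3 (adjusted p = 0.0588 to 0.149). MCM2, a subunit of the replicative helicase, named after its value was seen, was lower (-0.24) and lost without shNT replicate 2 or 3 or shNR4A3 replicate 1, 2 or 3 (adjusted p = 0.0723 to 0.181). The list had 9 calls with the block, 2 without shNT replicate 2, shNR4A3 replicate 2 or shNR4A3 replicate 3, and 3 without shNT replicate 3 or shNR4A3 replicate 1. The block called 4409 of all 17720 genes, which is the background for its list counts. Of 20 heat shock proteins and co-chaperones 1 was called, or 5% against 14.5% over all genes. It was BAG3 (0.45, SE 0.13, adjusted p = 0.0378), which was lost without shNT replicate 1 or 3 or shNR4A3 replicate 1 or 2 (adjusted p = 0.0664 to 0.145). With the replicate block 12 were called, 10 of them higher, with no filter 5 and by DESeq2 4, and the count ranged from 0 to 5 as single libraries were left out: 0 without shNT replicate 1, shNT replicate 3 or shNR4A3 replicate 2, 4 without shNR4A3 replicate 3 and 5 without shNT replicate 2.

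Mitochondrially encoded genes gave 0 calls among 13, although 12 had a negative log2 fold change (median -0.57). MT-ATP8, a subunit of the ATP synthase, had the smallest p and was 16917, 19991 and 12029 TPM in the shNT libraries and 10946, 9222 and 11390 TPM in the shNR4A3 libraries (log2 fold change -0.67, SE 0.25, adjusted p = 0.151), passing without shNT replicate 3 (adjusted p = 0.00244). The polymerase III transcripts RN7SL2 and RN7SL3, RNAs of the signal recognition particle that carry no poly(A) tail of their own, were also higher in shNT libraries. RN7SL2 was 2465, 1228 and 1361 TPM in the shNT libraries and 193, 144 and 95.3 TPM in the shNR4A3 libraries (-3.57, SE 0.43, adjusted p = 0.00859), and RN7SL3 was 19.4, 18.6 and 26.1 TPM in the shNT libraries and 4.26, 3.54 and 1.72 TPM in the shNR4A3 libraries (-2.76, SE 0.38, adjusted p = 0.000347). Both were picked after their values were seen, and their near-identical copies share reads. At 5% CO2 with LPS the same log2 fold changes were -0.18 and -0.53. The mitochondrial shares of the libraries overlapped between the lines, and at 5% CO2 + LPS all 13 mitochondrially encoded genes had a positive log2 fold change (median 0.21). The part of either RNA class in the other results was not tested.

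The same lines could be compared in 3 other conditions, which share no library with the comparison above. At 5% CO2 + LPS 574 genes were called higher (3.24%) and 384 lower (2.17%), at 10% CO2 without LPS 619 (3.49%) and 594 (3.35%), and at 5% CO2 without LPS 596 (3.36%) and 501 (2.83%). Of the 1294 genes called higher at 10% CO2 + LPS, 98.8% had a positive log2 fold change at 5% CO2 + LPS, 87.7% at 10% CO2 without LPS and 85.5% at 5% CO2 without LPS. Among the 1278 genes called lower, 99.4%, 92.1% and 91.5% had a negative one. Over all 17720 genes tested, 8702, 8656 and 8845 had a positive log2 fold change in these conditions, and 9018, 9043 and 8850 a negative one. Calls in the same direction were 491 and 308 at 5% CO2 + LPS, 365 and 339 at 10% CO2 without LPS, and 376 and 323 at 5% CO2 without LPS. FIGN was -3.91, -4.07 and -4.01 in these 3 conditions, CKAP4 -2.93, -3.16 and -3.22, and PRDM6 3.40, 3.15 and 3.13. For these genes the difference between the lines had nearly the same size with or without LPS and in either gas. Of the 50 interferon-stimulated genes, 27 were called higher at 5% CO2 + LPS, 17 at 10% CO2 without LPS (1 lower) and 13 at 5% CO2 without LPS (1 lower), with medians of 0.55, 0.30 and 0.29. The lower one was GBP5, a guanylate-binding protein, in both cases (-0.69 and -0.70).

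**Figure D5:**
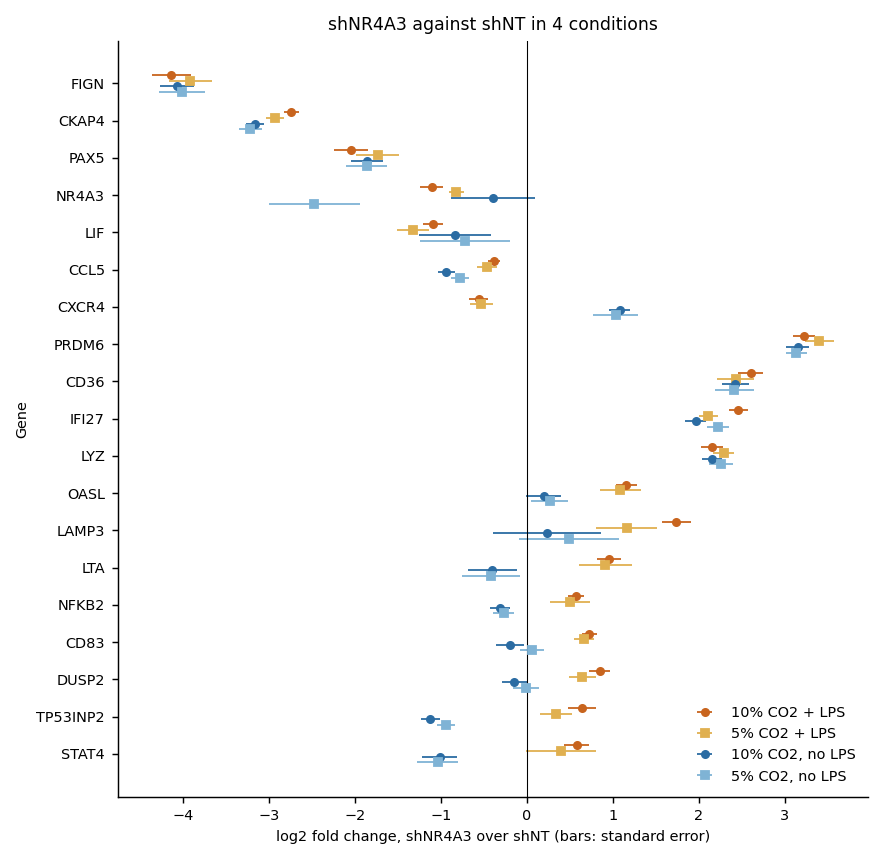
log2 fold change, shNR4A3 over shNT (horizontal axis, bars are standard errors), of 19 genes (vertical axis) in 4 conditions: orange circles 10% CO2 + LPS, yellow squares 5% CO2 + LPS, dark blue circles 10% CO2 and light blue squares 5% CO2 without LPS. FIGN, CKAP4, PRDM6, CD36, IFI27 and LYZ have similar values in all 4, whereas CXCR4, TP53INP2 and STAT4 change sign with LPS.

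Whether CO2 altered the difference between the lines in the presence of LPS was tested as an interaction over 12 libraries. No gene was called by edgeR (0 of 17720, 0%) or by DESeq2 (0). The genes whose unadjusted p was below 0.05 numbered 370 by edgeR and 350 by DESeq2, and 269 to 1219 over 19 alternatives, which also called 0. All 13 mitochondrially encoded genes had a negative interaction, with a median of -0.81 against 0.008 over all genes tested, and 0 were called. For NR4A3 the interaction was -0.27 (SE 0.16, adjusted p = 1), and for IFI27 0.36 (SE 0.16, adjusted p = 1).

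Whether LPS altered the difference at 10% CO2 was tested in the same way, and 35 genes were called (0.198%), 32 with a more positive and 3 (CXCR4 among them) with a more negative difference in the presence of LPS. CXCR4, the receptor of the chemokine CXCL12, was 29.9, 27.1 and 26.4 TPM in shNT and 67.1, 57.9 and 54.1 TPM in shNR4A3 cells without LPS, but 29.9, 26.03 and 32.03 and 19.9, 18.3 and 22.1 TPM with LPS. It was thus higher in shNR4A3 cells at rest and lower with LPS, without overlap in either state (interaction -1.65, SE 0.17, adjusted p = 0.000112). TP53INP2, a regulator of autophagy and transcription, was 36.9, 33.7 and 37.7 TPM in shNT and 15.4, 15.9 and 19.4 TPM in shNR4A3 cells at rest and 74.9, 51.5 and 67.3 and 122, 87.4 and 95.7 TPM with LPS (interaction 1.75, SE 0.18, adjusted p = 0.000212). STAT4, which transmits IL-12 signals, was 4.09, 3.40 and 3.53 and 1.56, 1.75 and 2.24 TPM at rest and 23.3, 30.7 and 25.4 and 42.9, 44.4 and 33.7 TPM with LPS (interaction 1.58, SE 0.23, adjusted p = 0.00566). Both genes were lower in every shNR4A3 library at rest and higher in every one with LPS. All 3 interactions remained called without any single library. In 1 fit to all 36 libraries CXCR4 (adjusted p = 0.0747) and STAT4 (adjusted p = 0.564) were no longer called, whereas TP53INP2 was (adjusted p = 0.000926). Within 10% CO2 + LPS alone, the call of TP53INP2 (0.64, SE 0.16, adjusted p = 0.041) was lost without shNT replicate 2 or 3 or shNR4A3 replicate 3 (adjusted p = 0.0777 to 0.125), and that of STAT4 (0.58, SE 0.14, adjusted p = 0.0249) without shNT replicate 1 or 3 or shNR4A3 replicate 1 or 2 (adjusted p = 0.0634 to 0.0974). The count of called interactions depended on the fit, at 179 with the replicate block, 135 with no filter, 99 by DESeq2 and 6 in 1 fit to all 36 libraries. Among the LPS-treated libraries, leaving out shNT replicate 1 gave 22 and replicate 3 gave 9, and leaving out shNR4A3 replicate 1 gave 13 and replicate 2 gave 23. Among those without LPS, leaving out replicate 3 of shNT gave 11, replicate 1 of shNR4A3 11 and replicate 2 of shNR4A3 12. On simulated counts this interaction test recovered 76% of 50 genes changed by a fold of 2 and 30% of 50 changed by a fold of 1.5. Of its 106 calls, 8.49% were of unchanged genes. The changed genes were drawn above a count floor and the libraries simulated without pairing, so the recovered shares do not cover genes of low counts.

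The knockdown of NR4A2 offers a comparison with the closest relative. shNR4A2 cells at 10% CO2 + LPS had 1647 genes called higher (9.29%) and 1697 lower (9.58%) against the same 3 shNT libraries, so the 2 knockdown effects share their controls and are set side by side only. NR4A2 was -1.67 there (adjusted p = 3.28e-07) and NR4A3 0.57 (adjusted p = 0.00296). Of the 50 interferon-stimulated genes 10 were called higher in shNR4A2 cells (median 0.35) beside 36 in shNR4A3 cells (median 0.72). MHC class II genes gave 6 of 12 higher in each line, dendritic cell markers 8 of 15 in each, and NF-kB genes 7 of 16 in each. The counts differed for the 15 MHC class I genes. In shNR4A2 cells 7 were called higher and 1 lower (53.3%, against 18.9% over all genes), beside 1 higher in shNR4A3 cells. LYZ was 1.70 in shNR4A2 and 2.15 in shNR4A3 cells, NCAM1 2.81 and 2.37, and CD36 1.55 and 2.61.

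The direct test of shNR4A3 against shNR4A2 libraries called 488 genes higher in shNR4A3 (2.75%) and 582 lower (3.28%). Its replicates also deviated together, and with the block 2876 genes were called. It was 493 without shNR4A2 replicate 3, 553 without shNR4A3 replicate 2 and 605 without shNR4A2 replicate 2. NR4A3 was lower in shNR4A3 than in shNR4A2 cells (-1.68, SE 0.16, adjusted p = 0.000359), and NR4A2 higher by 1.34 (SE 0.09, adjusted p = 1.67e-06). Each line was thus lowest in its own target. PRDM6 was 0.658, 0.688 and 1.02 TPM in shNR4A2 cells, far below the shNR4A3 libraries given above (3.49, SE 0.16, adjusted p = 3.31e-08). IGFBP7, a secreted binder of insulin-like growth factors, was 59.8, 65.4 and 61.7 TPM in shNT, 234, 265 and 261 TPM in shNR4A3 and 73.98, 77.8 and 71.6 TPM in shNR4A2 cells (shNR4A3 over shNR4A2 1.77, SE 0.08, adjusted p = 3.31e-08). AKR1C2, an aldo-keto reductase of steroid metabolism whose reads may be shared with AKR1C1, was the reverse case, at 36.9, 34.1 and 32.8, 33.1, 28.9 and 28.2 and 432, 501 and 452 TPM in shNT, shNR4A3 and shNR4A2 libraries (-3.93, SE 0.10, adjusted p = 4.33e-11). FIGN, lower in shNR4A3 cells, was 4.33, 4.06 and 4.71 TPM in shNR4A2 cells (-4.26, adjusted p = 5.3e-08), and IFI27 was 5.63, 8.23 and 10.5 TPM (2.05, adjusted p = 4.89e-05). Of the interferon-stimulated genes, IFI27, OASL (0.53), IFIH1 (0.52), XAF1 (0.72) and GBP3 (0.35) were higher in shNR4A3 than in shNR4A2 cells, and GBP2 (-0.43) and TRIM25 (-0.50) lower. Of 15 MHC class I genes 1 was higher and 6 lower in shNR4A3 cells (46.7% called, against 6.04% over all genes).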

How the data were processed

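Polyadenylated RNA of THP-1 cells was sequenced as 36 libraries. Per the labels and the study's methods, the authors used Trimmomatic 0.36 for trimming and STAR 2.5.2b for alignment to GRCh38, and deposited raw counts per gene, made with featureCounts (Subread 1.5.2). The annotation release and strand setting are not given in the sources used here, so antisense and overlapping genes are uncertain.

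Symbols matched 56410 of 57500 gene IDs (98.1%). Genes passing edgeR's filterByExpr (minimum count 10, minimum total 15) over all 36 libraries were kept, 17720 in all. Each comparison used its own libraries, TMM scaling and edgeR's robust quasi-likelihood F test (edgeR 4.0.16, R 4.3.3) with Benjamini-Hochberg adjustment. The study used DESeq2's Wald test, run here (1.42.0) as an alternative. TPM was computed from counts and gene lengths. With 3 libraries against 3 no exact permutation test reaches a two-sided p under 0.1, so smaller values rest on the model. Totals were 16171161 to 23929138 over the series, and the biological coefficient of variation was 9.61% in the main comparison.

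Replicate numbers were checked for pairing. Over 8942 genes of 10 CPM or more, same-numbered shNT and shNR4A3 libraries correlated in their deviations from the group means at 0.473, 0.416 and 0.428, and over all 17720 genes at -0.068, 0.0416 and 0.0988. The numbers were taken to pair the libraries on the former, as they were for shNR4A2 and shNR4A3 libraries (0.621, 0.526 and 0.385). The main fits nevertheless had no replicate term, so their calls, SE and adjusted p are unpaired. Pairing entered only through the replicate block, an alternative. Alternatives were RLE factors, library size only, DESeq2, no filter, filterByExpr within the libraries compared, the replicate block, 1 fit to all 36 libraries and each library left out. On simulated counts of 17720 genes the main test recovered 18%, 70%, 84% and 94% of 50 genes changed by folds of 1.25, 1.5, 2 and 4, and 11.3% of its 150 calls were of unchanged genes. The changed genes were drawn above a count floor, and the simulated libraries were not paired.

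Named genes were the NR4A family, the 10 largest changes each way (protein coding, at least 5 CPM in the higher group, no overlap), up to 4 called genes of smallest adjusted p per list, or the 1 of smallest p where a list had none called, 3 per interaction and in the test against shNR4A2, and up to 5 with an NBRE. The libraries compared, the gene lists and this rule were chosen with earlier results of these data known. Promoters came from RefSeq (GRCh38.p14), 12091 of 17720 matched by symbol. Some genes of the lists are not reported here by name.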

Additional observations from a re-analysis of the deposited data

Results flagged for a closer look

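The difference between shNR4A3 and shNT cells at 10% CO2 changed with LPS for 35 genes, by edgeR's interaction test over 12 libraries, and 9 of the genes described above were among them. CXCR4, TP53INP2 and STAT4 had interactions of -1.65, 1.75 and 1.58, and the log2 fold change had opposite signs with and without LPS. NFKB2 (interaction 0.87, SE 0.14, adjusted p = 0.0131), CD83 (0.92, SE 0.18, adjusted p = 0.0391), DUSP2 (0.98, SE 0.19, adjusted p = 0.0391), CARD16 (0.94, SE 0.19, adjusted p = 0.0391) and SERPINA1 (1.52, SE 0.30, adjusted p = 0.0437) were called higher in shNR4A3 cells with LPS and not called without it (-0.31, -0.20, -0.15, -0.04 and -0.36). For NR4A1, lower in shNR4A3 cells at rest (-0.76, adjusted p = 0.00566), the interaction was 0.93, SE 0.18, adjusted p = 0.0315. These last 6 lost their calls without some libraries: of 12 left out in turn, NFKB2 stayed called in 11, CD83 in 4, NR4A1, DUSP2 and CARD16 in 3, and SERPINA1 in 2, with the highest adjusted p from 0.0585 to 0.178. With the replicate block all 6 interactions were called (adjusted p from 0.000518 to 0.00717).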

How the results depend on the processing

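With the replicate block the shNR4A3 effect at 10% CO2 + LPS had 4409 calls, the LPS interaction 179 and the test against shNR4A2 2876. Single libraries left out gave 1269 to 2100 calls for the effect, 9 to 43 for the LPS interaction, 493 to 1210 against shNR4A2, 0 in each case for the CO2 interaction, -1.27 to -0.97 for NR4A3 and 129 to 174 called genes of the lists (180 of 489 with all libraries). The LPS interaction had 99 calls with DESeq2, 135 with no filter and 6 with 1 fit to all 36 libraries. The cause of these shifts was not tested. The other 73 of 90 alternative values of these counts and of NR4A3 stayed within 1.5 times or on their side of the threshold. For the main effect DESeq2 called 2256 genes, RLE size factors 2524 and library size only 2603, 43.9% of the latter higher against 50.3%. Among single genes 1915 alternative values kept direction and call, 171 lost the call, 17 gained it and 1 reversed. With the replicate block, 155 of these values kept direction and call and 5 gained the call. The reversed value was TNF, not called in any of them, at 0.0215 without shNT replicate 1 in place of -0.05, with a range of -0.0936 to 0.0215 over single libraries left out.

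For the CO2 interaction the replicate numbers were not taken as pairs, since same-numbered libraries did not all correlate, and its block called 0 genes. List counts that the block moved by over 1.5 times are given with the lists, and AKR1C2 became called under it (0.021). Depth limits NR4A3 without LPS, where a library held 14 counts or fewer at 10% CO2.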
